A study of Mus musculus with 16 samples.

Results

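The variable gene segments of the T cell receptor alpha chain (Trav) and beta chain (Trbv) were followed in RNA of immune cells from the intestinal lamina propria of mice. Genes were taken as members where their Ensembl identifier maps to a mouse symbol that starts with Trav or Trbv, which gave 146 of the 35647 genes in the table, 111 Trav and 35 Trbv segments. All mice had been raised germ-free, carried the label wild-type for their own genotype, and were then colonized for 5 weeks with 1 strain of *Bifidobacterium breve*, a gut commensal. The groups were ileum of mice carrying the Δchat strain, which lacks acetylcholine production, ileum of mice carrying the wild-type strain (WT), colon of Δchat mice and colon of WT mice, with 4 libraries each. Ileum and colon came from the same 8 mice, 4 per strain. Age and sex are not given in the labels used here, and the cells were enriched on a Percoll gradient with no sort for T cells.

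Each T cell joins 1 alpha and 1 beta variable segment to short joining segments, and the spliced transcript carries the variable segment ahead of a constant region, Trac for alpha and Trbc1 or Trbc2 for beta. The variable segment encodes most of the part that contacts the antigen and its presenting molecule, so the mix of segments in a tissue describes its T cell repertoire. The mouse alpha locus holds large internal duplications, whose segments bear a d or n in their names and are close copies of the plain ones, and it shares some segments with the delta chain of gamma delta T cells (dv in their names). The lamina propria of the gut is rich in CD4+ T cells that respond to commensal bacteria, with CD8+ and gamma delta T cells lying more in the epithelium above it.

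The copies of 1 alpha segment show why single Trav values are uncertain. Trav7-4 had the highest mean count of the alpha segments, and its coding sequence in GENCODE M21 (build GRCm38, chromosome 14, plus strand) differs from that of Trav7d-4 at 2 of 341 positions and from that of Trav7n-4 at 7. The 3 copies are not all the same at 8 positions, and capitals mark the 6 of these that lie in the last 300 bases, which are printed.
Trav7-4: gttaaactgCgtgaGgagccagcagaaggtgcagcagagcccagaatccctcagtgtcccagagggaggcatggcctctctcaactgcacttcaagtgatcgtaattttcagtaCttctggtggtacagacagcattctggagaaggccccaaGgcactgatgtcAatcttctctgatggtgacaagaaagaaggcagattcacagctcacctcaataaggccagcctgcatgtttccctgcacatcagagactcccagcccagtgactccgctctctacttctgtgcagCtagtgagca
Trav7d-4: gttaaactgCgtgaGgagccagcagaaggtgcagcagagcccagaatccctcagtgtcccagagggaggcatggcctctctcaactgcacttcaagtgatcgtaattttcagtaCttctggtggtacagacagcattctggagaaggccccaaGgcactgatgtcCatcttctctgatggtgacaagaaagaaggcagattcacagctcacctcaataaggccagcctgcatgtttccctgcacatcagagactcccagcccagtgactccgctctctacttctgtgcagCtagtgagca
Trav7n-4: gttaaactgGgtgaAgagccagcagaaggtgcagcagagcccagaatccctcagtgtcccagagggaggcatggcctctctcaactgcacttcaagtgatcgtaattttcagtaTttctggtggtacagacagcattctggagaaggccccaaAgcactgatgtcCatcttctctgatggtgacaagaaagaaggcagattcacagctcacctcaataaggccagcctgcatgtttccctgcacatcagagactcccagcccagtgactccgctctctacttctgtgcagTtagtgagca

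The beta segments that the results turn on are more distinct. They are shown as the last 300 coding bases of the same annotation, from chromosome 6, plus strand, with the last in-frame cysteine codon in capitals, the residue close to which the variable part meets the joining segments. Trbv17 passed the test between tissues, Trbv15 had the smallest p between strains, and Trbv13-2 had the highest level of all members.
Trbv17: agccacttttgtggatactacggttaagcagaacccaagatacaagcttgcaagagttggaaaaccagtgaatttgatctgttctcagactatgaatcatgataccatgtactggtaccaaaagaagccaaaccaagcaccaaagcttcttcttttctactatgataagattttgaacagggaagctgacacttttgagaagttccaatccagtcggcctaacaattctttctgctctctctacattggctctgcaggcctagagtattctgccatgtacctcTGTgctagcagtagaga
Trbv15: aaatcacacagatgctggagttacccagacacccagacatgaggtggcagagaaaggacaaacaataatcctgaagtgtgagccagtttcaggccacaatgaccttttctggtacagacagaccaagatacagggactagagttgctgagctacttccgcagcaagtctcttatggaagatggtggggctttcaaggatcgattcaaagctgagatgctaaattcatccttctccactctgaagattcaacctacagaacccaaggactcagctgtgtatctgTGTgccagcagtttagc
Trbv13-2: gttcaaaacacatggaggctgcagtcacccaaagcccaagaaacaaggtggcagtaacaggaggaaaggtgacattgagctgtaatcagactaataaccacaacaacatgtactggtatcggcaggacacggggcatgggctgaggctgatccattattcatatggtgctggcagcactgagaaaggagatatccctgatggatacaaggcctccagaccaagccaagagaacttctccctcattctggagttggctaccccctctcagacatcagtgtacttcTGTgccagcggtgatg

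Trav11, on the plus strand of chromosome 14, is the alpha segment of the invariant receptor of natural killer T cells, and its reads are described with those of the other invariant receptors. Its last 300 coding bases are printed in the same way. Trav11d matched it at every one of the 342 bases compared.
Trav11: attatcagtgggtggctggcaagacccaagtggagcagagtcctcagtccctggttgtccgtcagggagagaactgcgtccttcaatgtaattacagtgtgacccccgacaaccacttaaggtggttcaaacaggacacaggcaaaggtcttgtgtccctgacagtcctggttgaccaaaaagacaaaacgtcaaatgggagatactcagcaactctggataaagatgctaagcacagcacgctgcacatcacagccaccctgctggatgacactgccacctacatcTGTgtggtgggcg

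The libraries held between 15.9 and 23.6 M estimated counts (M for 1000000), of which the Trav segments together took 68 to 344 and the Trbv segments 102 to 428. The segments were thus measured at a few counts each: no Trav segment exceeded 24 counts and no Trbv segment 46 counts in a library. Of the 111 Trav segments, 93 are annotated as functional and 18 as pseudogenes. In no library did 15 of them have a count, 13 pseudogenes and the functional Trav13d-4 and Trav18, and 5 had a count in all 16 libraries. Of the 35 Trbv segments, 22 are functional and 13 are pseudogenes. The 10 at 0 in every library were all pseudogenes, and 18 had a count in all 16 libraries. A count of 0 allows a level of up to 3 counts, which was between 0.127 and 0.188 ppm (counts per 1000000 of a library's total) over the libraries. The 60 Traj, 14 Trbj and 2 Trbd rows, the joining and diversity segments, were at 0 throughout, so pairings of variable with joining segments were not seen. All 12 T cell markers, among them Trac, Cd3e and Cd4, were detected in every library. Of the genes of developing lymphocytes, the recombinase subunit Rag2 was at 0 throughout, while its partner Rag1 had up to 22 counts (0.97 CPM, counts per 1000000, scaled over all 16 libraries by TMM) in a colon library of Δchat mice, Dntt, the enzyme that adds bases at the joins, had between 0.0404 and 0.666 CPM and was counted in every library, and Ptcra, the stand-in alpha chain of developing T cells, had up to 3 counts. Their part in the segment values was not tested.

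The summed share of alpha segments was higher in ileum than in colon, by a similar factor under both strains. Trav segments took 13.6, 15.5, 9.28 and 14.7 ppm in ileum of Δchat mice, against 10.2, 10.8, 4.41 and 3.65 ppm in colon of the same mice. They took 15.6, 14.5, 10.6 and 14.4 ppm in ileum of WT mice, against 9.70, 7.27, 7.37 and 6.31 ppm in their colon. The share was higher in ileum in 4 of 4 mice of each strain, and the groups overlapped in Δchat mice and not in WT mice. The ratio of means, ileum over colon, was 1.82 in Δchat mice (13.3 ± 2.77 against 7.27 ± 3.77 ppm, SD, n = 4 each) and 1.80 in WT mice (13.8 ± 2.19 against 7.66 ± 1.44 ppm, SD, n = 4 each).

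Beta segments were higher in ileum by a smaller factor, and their ranges overlapped. Trbv segments took 18.5, 15.8, 16.1 and 18.3 ppm in ileum of Δchat mice, against 14.5, 16.4, 6.92 and 5.47 ppm in their colon, and were higher in ileum in 3 of 4 mice. They took 13.4, 19.3, 16.2 and 19.1 ppm in ileum of WT mice, against 17.04, 10.03, 11.02 and 9.32 ppm in their colon, again higher in 3 of 4. The ratios of means were 1.58 in Δchat mice and 1.44 in WT mice. Between strains the means lay close together within 1 tissue: the Δchat over WT ratio was 0.949 for Trav and 0.915 for Trbv in colon, and 0.961 for Trav and 1.01 for Trbv in ileum, with overlapping groups each time. Exact 95% binomial intervals of a library's sum reached from 9.25 to 22.3% below it and from 9.94 to 26.8% above it, and cover counting error only. In these bulk libraries fewer T cells and less receptor RNA per T cell cannot be told apart.

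**Figure D1:**
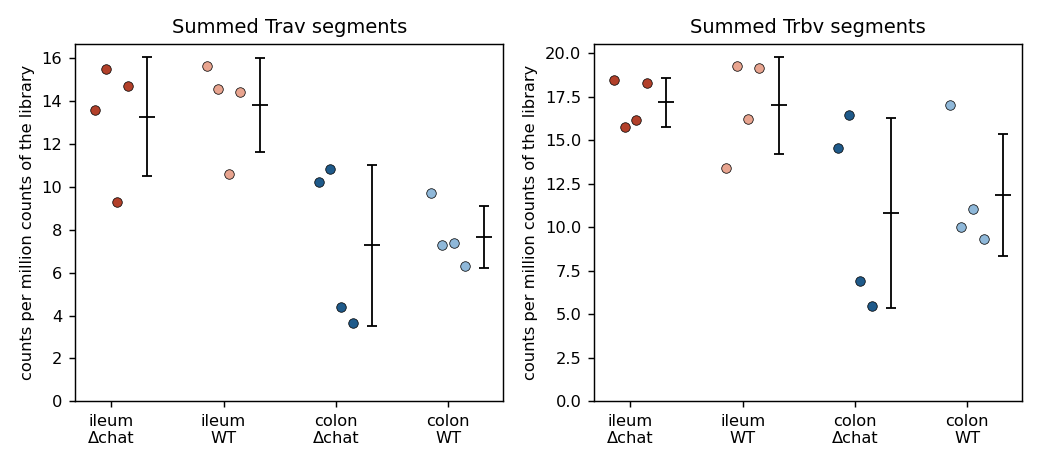
Summed share of the Trav (left) and Trbv (right) segments in ppm of the estimated counts, one point per library, with mean and SD of 4 libraries as bars. Most ileum libraries lie above most colon libraries, and replicates 3 and 4 of Δchat colon are the lowest of all, at 4.41 and 3.65 ppm for Trav and 6.92 and 5.47 ppm for Trbv.

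Set against the constant regions, ileum and colon lay close together. Trav segments had 29.7, 31.1, 27.99 and 38.3 counts per 100 Trac counts in ileum of Δchat mice, against 29.5, 28.9, 32.2 and 25.3 in their colon, and 39.8, 32.9, 25.8 and 31.4 in ileum of WT mice, against 32.3, 37.1, 33.1 and 36.9 in their colon. The ileum over colon ratio of this measure was 1.10 in Δchat mice and 0.932 in WT mice, with overlap in both. Between strains in colon the groups did not overlap: 29.0 ± 2.81 Trav counts per 100 Trac counts in Δchat mice against 34.8 ± 2.52 in WT mice (SD, n = 4 each), a ratio of 0.831. The gap was narrow, between 32.2 in Δchat replicate 3 and 32.3 in WT replicate 1. Counting error of the Trav sum of that Δchat library alone reached 19.0% below and 22.1% above it, and the measure carries no test. In ileum the same measure was 31.8 ± 4.53 in Δchat mice and 32.5 ± 5.76 in WT mice, with overlap. Trbv segments had 16.3 ± 3.59 counts per 100 counts of Trbc1 and Trbc2 in colon of Δchat mice, against 19.4 ± 4.07 in colon of WT mice, and 18.7 ± 1.88 in ileum of Δchat mice, against 17.3 ± 2.08 in ileum of WT mice. The share of Trbc1 in the beta constant counts had group means between 43.5 and 47.6%.

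**Figure D2:**
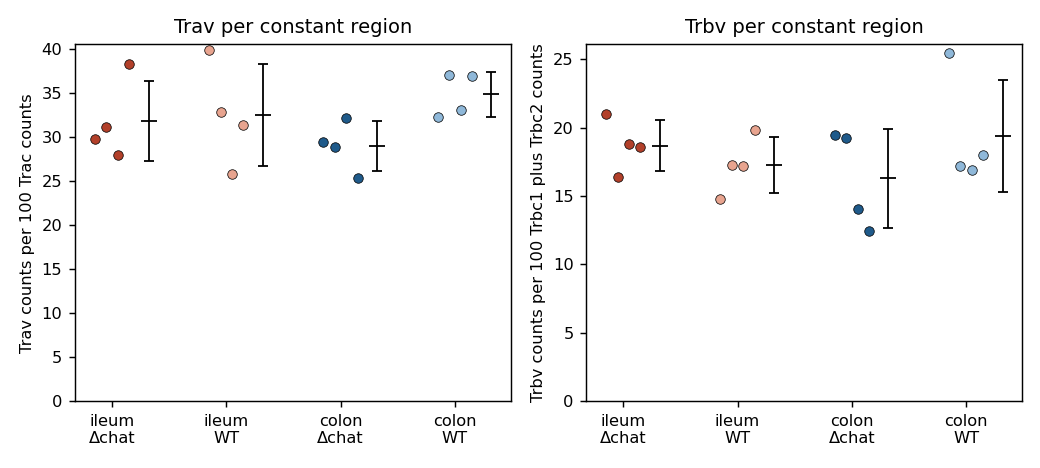
Variable segment counts per 100 constant region counts, Trav over Trac (left) and Trbv over Trbc1 plus Trbc2 (right), one point per library with mean and SD of 4 libraries as bars. Colon of Δchat mice lies below colon of WT mice for Trav with no overlap but only a narrow gap, and ileum and colon overlap in each strain.

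Other T cell receptor genes were also higher in ileum. Trac, the alpha constant region, had 47.1, 51.3, 33.6 and 38.4 CPM in ileum of Δchat mice, against 31.9, 34.8, 12.7 and 13.5 CPM in their colon, and 41.5, 51.6, 43.6 and 49.0 CPM in ileum of WT mice, against 28.4, 19.6, 21.2 and 17.1 CPM in their colon. Its log2 fold change, ileum over colon, was 1.09 ± 0.30 (SE) in WT mice, an adjusted p of 0.0149 in edgeR's quasi-likelihood test with Benjamini-Hochberg adjustment, and 0.87 ± 0.29 in Δchat mice, where the adjusted p of 0.0644 missed the threshold of 0.05. With the mouse as a block the Δchat value passed, at an adjusted p of 0.0174 in edgeR, as it did without Δchat colon replicate 1 (adjusted p = 0.0430) or 2 (0.0257). Trbc1, 1 of the 2 beta constant regions, rose by 0.62 ± 0.15 in Δchat mice and by 0.73 ± 0.15 in WT mice on the log2 scale, at adjusted p-values of 0.0118 and 0.00345 in edgeR.

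The CD3 chains, which carry the signal of the receptor into the cell, were higher in ileum too. Cd3d averaged 23.6 ± 2.76 CPM in ileum and 12.8 ± 4.91 CPM in colon of Δchat mice, and 24.2 ± 3.12 CPM in ileum and 14.0 ± 2.56 CPM in colon of WT mice (SD, n = 4 each), with log2 fold changes of 0.89 ± 0.22 and 0.77 ± 0.22 (edgeR adjusted p = 0.0163 and 0.0189). Of the 7 CD3 and constant region genes, 5 passed in Δchat mice, with a median log2 fold change of 0.87, and 6 in WT mice, with a median of 0.96, all higher. Over all genes tested 8.31% were called higher in Δchat mice and 13.7% in WT mice, with medians of -0.02 and -0.04. In Δchat mice Cd3e, Cd3g and Trbc2 missed the threshold without colon replicate 3 or 4 (edgeR adjusted p between 0.0519 and 0.106) or without ileum replicate 2 (between 0.0720 and 0.110), and Cd3e and Trbc2 also without ileum replicate 4 (0.0544 and 0.0775). Cd247, the zeta chain, passed in neither, at 0.66 ± 0.25 and 0.65 ± 0.25 (edgeR adjusted p = 0.0898 and 0.0585), though it did without Δchat colon replicate 2 (0.0193) or WT ileum replicate 1 (0.0478). Cd4, the coreceptor of helper T cells, rose by 1.24 ± 0.27 in Δchat mice and 1.59 ± 0.27 in WT mice (edgeR adjusted p = 0.00793 and 0.00132). Cd8a rose by 1.26 ± 0.30 in Δchat mice (edgeR adjusted p = 0.0135), and its 0.75 ± 0.30 in WT mice did not pass (adjusted p = 0.0761) unless WT colon replicate 1 was left out (0.0289). Cd8b1, the other CD8 chain, was at 0.15 ± 0.38 in WT mice (edgeR adjusted p = 0.803). It averaged 8.13 ± 0.945 CPM in ileum and 7.25 ± 2.98 CPM in colon of WT mice, with overlap. In Δchat mice the means were 9.61 ± 2.39 and 3.93 ± 2.51 CPM (SD, n = 4 each), also with overlap. Whether the ileum to colon difference of Cd8a was itself unlike between the strains is the same question as whether the strain effect is unlike in the 2 tissues, in which 0 genes of the receptor list were called by edgeR or DESeq2, with 1 below an unadjusted p of 0.05. Over all genes edgeR called 0.0592% there and DESeq2 0.401%, and 7.72% lay below that unadjusted p.

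A wider list of 34 genes of the receptor complex and its signalling was tested in full. In ileum against colon, 19 were called higher and 0 lower in Δchat mice, with a median log2 fold change of 0.68, where 8.31% of all genes tested were called higher. In WT mice 21 were called higher and 1 lower, with a median of 0.78, where 13.7% of all genes were called higher and 15.1% lower. The Δchat count fell to 11 without replicate 3 and to 10 without replicate 4 of Δchat colon. The gene called lower was Cd2, an adhesion receptor of T and natural killer cells that is also made by B cells in mice, at -0.84 ± 0.24 (edgeR adjusted p = 0.0185), named here because of its value. Its call was lost without WT colon replicate 1 (adjusted p = 0.0724) or WT ileum replicate 4 (adjusted p = 0.0584). Between strains 0 of the 34 were called in edgeR, with 4 below an unadjusted p of 0.05 and a median of -0.03 in colon, and 2 below it and a median of -0.11 in ileum. Over all genes edgeR called 0.00682% in colon and 0.0207% in ileum, and 13.3 and 10.9% lay below that unadjusted p. DESeq2 called 0 in colon and 1 in ileum, where it called 2.27 and 2.59% of all genes.

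Other cell types differed between the same groups. The summed level of the 5 plasma cell markers, all detected in every library, ran from 50307 to 87564 CPM in ileum and 17415 to 24590 CPM in colon of Δchat mice, and from 82940 to 152320 CPM in ileum and 32668 to 66080 CPM in colon of WT mice. The 5 macrophage markers summed to 623 to 2817 CPM in ileum and 275 to 591 CPM in colon of Δchat mice, and to 935 to 1336 CPM in ileum and 208 to 294 CPM in colon of WT mice. The 5 B cell markers summed to 280 to 1292 CPM in ileum and 1009 to 1764 CPM in colon of Δchat mice, and to 411 to 810 CPM in ileum and 1497 to 2644 CPM in colon of WT mice. The 7 epithelial markers summed to 48.9 to 297 CPM in ileum and 151 to 1974 CPM in colon of Δchat mice, the highest being colon replicate 3, and to 59.2 to 213 CPM in ileum and 28.5 to 135 CPM in colon of WT mice. The 12 T cell markers summed to 399 to 582 CPM in ileum and 158 to 345 CPM in colon of Δchat mice, and to 468 to 612 CPM in ileum and 197 to 265 CPM in colon of WT mice. The part of these cells in the segment values was not tested. Fits with an epithelial or a T cell score are given beside the calls, and the T cell score itself differed with tissue.

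Most single segments fell under the filter for low counts. In ileum against colon 20 members were tested, 18 Trbv segments with Trav7-4 and Trav12-2, and those that passed the filter are the more abundant ones. In colon alone 10 members passed it, all Trbv and without Trbv17, and in ileum alone 17. Members could thus pass through the ileum libraries, where they are high. The counts by direction and the medians given next are tilted toward ileum by this and are not support for a difference. In Δchat mice 19 of the 20 were higher in ileum, with a median log2 fold change of 0.88 against -0.02 over all genes tested. In edgeR 2 were called, both higher, where 13.3% of all genes were called, 8.31% higher and 5.02% lower. In WT mice 20 of 20 had a positive value, the smallest being 0.00 on rounding for Trbv13-1, with a median of 0.82, against -0.04 over all genes, and 0 were called in edgeR, where 28.8% of all genes were called. At an unadjusted p under 0.05 there were 6 of 20 in Δchat mice and 3 of 20 in WT mice, where 28.7 and 40.9% of all genes were, and DESeq2 called 5 and 3, where it called 18.4 and 33.0% of all genes. With the T cell score as a covariate, the medians were -0.07 in Δchat mice and -0.37 in WT mice, and 0 were called. The score itself differed with tissue. It ran from 4.65 to 5.16 in ileum and 3.62 to 4.11 in colon of WT mice. In Δchat mice it ran from 4.42 to 5.06 in ileum and 3.07 to 4.49 in colon. A fit with this score therefore takes out much of the tissue difference by design and cannot part T cell content from tissue.

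**Figure D3:**
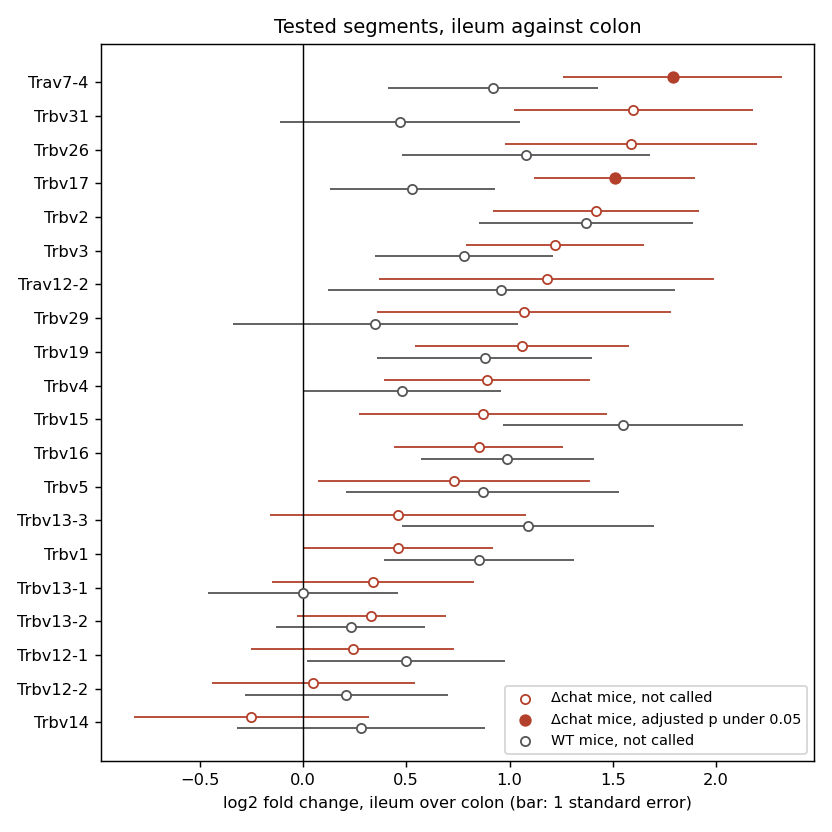
Log2 fold change of ileum over colon with its standard error for the 20 members tested, in Δchat mice and in WT mice, from 1 edgeR fit over 16 libraries. Nearly all values lie above 0, and the calls are Trbv17 and Trav7-4 in Δchat mice. Members could pass the filter through the ileum libraries, which tilts the tested set toward ileum.

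Trbv17, a beta segment with no near-identical copy among the members, passed in Δchat mice. In colon alone it fell under the filter. It passed that of the tissue fits only with the ileum libraries, where it is high, which limits its call. It had 10, 9, 23 and 28 counts (0.647, 0.484, 1.01 and 1.20 CPM) in ileum of Δchat mice, against 11, 7, 5 and 3 counts (0.480, 0.309, 0.212 and 0.150 CPM) in their colon. All 4 ileum libraries lay above the 4 colon libraries, the closest pair being 0.484 and 0.480 CPM. The log2 fold change was 1.51 ± 0.39 (SE), a 2.86-fold difference, with an adjusted p of 0.0198 in edgeR. In WT mice it had 0.361, 0.624, 0.585 and 0.444 CPM in ileum, against 0.322, 0.315, 0.404 and 0.336 CPM in colon, and the groups overlapped. The call was lost with the mouse as a block (log2 1.51, adjusted p = 0.0827), with the T cell score as a covariate (1.12, adjusted p = 0.252), and without Δchat colon replicate 3 (adjusted p = 0.0584), Δchat colon replicate 4 (0.0589) or Δchat ileum replicate 4 (0.0611), all in edgeR.

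Trav7-4, 1 of the 3 near-identical copies printed above, passed in the same comparison. Like Trbv17 it fell under the filter in colon alone and entered the tissue fits only with the ileum libraries, where it is high. Its call is limited by this too. It had 4, 13, 11 and 22 counts in ileum of Δchat mice, against 5, 5, 1 and 4 counts in their colon. In CPM these were 0.259, 0.700, 0.481 and 0.940 in ileum and 0.218, 0.220, 0.0423 and 0.200 in colon, and the groups did not overlap. The log2 fold change was 1.79 ± 0.53 (SE), a 3.46-fold difference, with an adjusted p of 0.0357 in edgeR. In WT mice it had 0.421, 0.340, 0.540 and 0.777 CPM in ileum, against 0.215, 0.270, 0.161 and 0.448 CPM in colon, with overlap. In edgeR the call was lost with the mouse as a block (1.77, adjusted p = 0.0624), with no filter on low counts (adjusted p = 0.0625), with the epithelial score (1.60, adjusted p = 0.0569), with the T cell score (adjusted p = 0.275), without any 1 of the 4 Δchat colon libraries (adjusted p between 0.0565 and 0.0833), and without Δchat ileum replicate 2 (0.0824) or 4 (0.0996). With all 12 Trav7 segments summed before the fit, the subgroup's log2 fold change was 1.48 ± 0.50 (SE) and was not called (edgeR adjusted p = 0.0642). How reads were shared among the copies was not tested.

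Of the tested members, 5 did not overlap between tissues in Δchat mice, all higher in ileum, as 9.47% of all genes were, with 0 lower, where 6.12% of all genes were. In WT mice 4 were higher without overlap and 0 lower, where 16.8 and 18.3% of all genes were. The filter favours members high in ileum, so the direction of these is tilted. Beside Trbv17 and Trav7-4, the Δchat ones were Trbv2, Trbv26 and Trbv31, the last a segment that lies in the locus beyond the constant regions. Trbv2 had 1.23, 1.78, 0.875 and 1.03 CPM in ileum of Δchat mice, against 0.524, 0.749, 0.0847 and 0.451 CPM in their colon. The WT ones were Trbv2, Trbv3, Trbv15 and Trbv16. Trbv26 and Trbv3 stand here because of their values, not by the rule for named segments.

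In WT mice the 3 smallest p-values between tissues belonged to Trbv15, Trbv2 and Trbv16, and did not pass. Trbv15 had 1.20, 2.49, 1.31 and 1.997 CPM in ileum of WT mice, against 0.912, 0.405, 0.283 and 0.784 CPM in their colon, with no overlap. Its log2 fold change was 1.55 ± 0.58, at an adjusted p of 0.0592 in edgeR. Trbv2 had 0.601, 0.850, 0.945 and 0.887 CPM in ileum, against 0.483, 0.135, 0.404 and 0.224 CPM in colon of WT mice, a value of 1.37 ± 0.52 (edgeR adjusted p = 0.0599). Trbv16 had 1.20, 1.42, 1.94 and 1.66 CPM in ileum, against 1.02, 0.675, 0.848 and 0.560 CPM in colon of WT mice, a value of 0.99 ± 0.42 (edgeR adjusted p = 0.0876). These 3 were called by DESeq2 and in edgeR with the epithelial score as a covariate. With the T cell score, which did not overlap between the tissues of WT mice, they were not called. The signs of Trbv15 and Trbv16 turned in that fit, to -0.14 and -0.18.

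**Figure D4:**
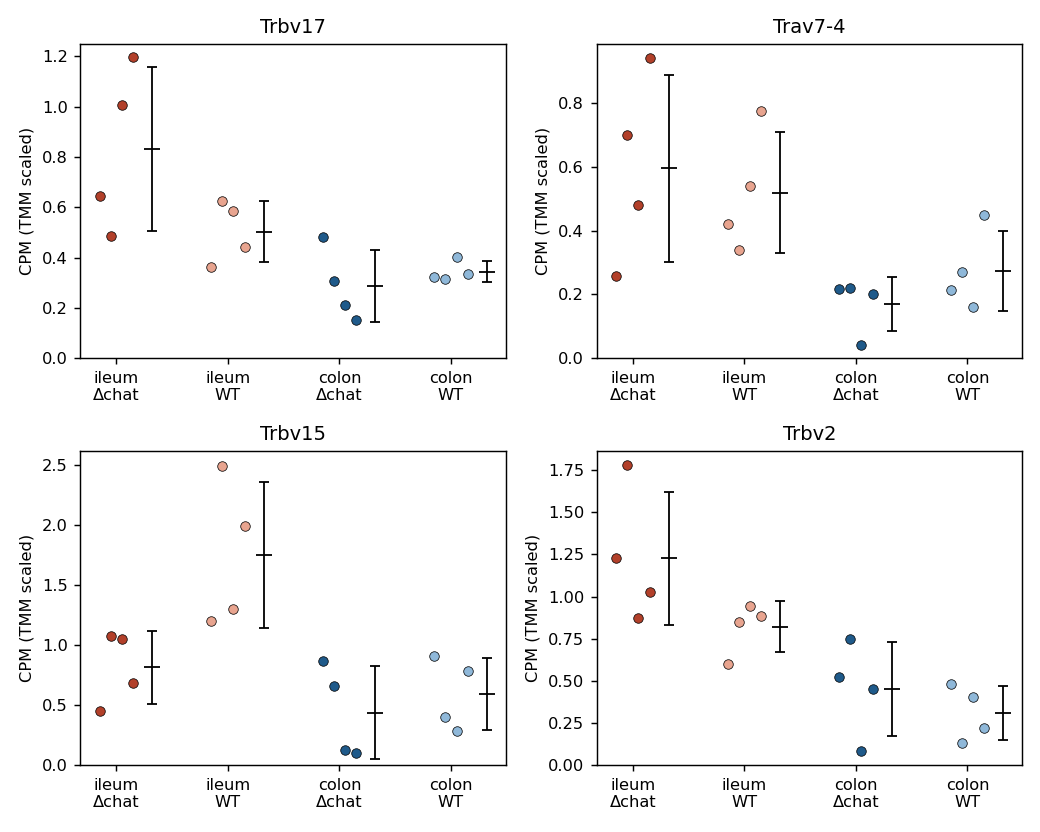
CPM of Trbv17, Trav7-4, Trbv15 and Trbv2 in each library, with mean and SD of 4 libraries as bars. Trbv17, Trav7-4 and Trbv2 do not overlap between ileum and colon of Δchat mice, and Trbv15 is lower in ileum of Δchat mice than in ileum of WT mice with no overlap.

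Between the bacterial strains no segment was called. In colon 10 members were tested, all Trbv, and 0 were called by edgeR, where 0.00682% of all genes were called, with 0 below an unadjusted p of 0.05, where 13.3% of all genes were, and 0 called by DESeq2, which called 2.27% of all genes. No member lay apart without overlap, as 3.59% of all genes did higher and 3.95% lower. Their median log2 fold change, Δchat over WT, was -0.09 against 0.01 over all genes. In ileum 17 members were tested, 16 Trbv and Trav7-4, and 0 were called by edgeR, where 0.0207% of all genes were called, with 1 below an unadjusted p of 0.05, where 10.9% of all genes were, and 0 called by DESeq2, which called 2.59% of all genes. Their median was -0.05 against 0.02 over all genes.

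The segment with the smallest p in ileum was Trbv15. It had 0.453, 1.08, 1.05 and 0.684 CPM in ileum of Δchat mice, against 1.20, 2.49, 1.31 and 1.997 CPM in ileum of WT mice. Every Δchat library lay below every WT library, as 3.66% of all genes did, while 0 members lay above without overlap, where 3.79% of all genes did. The log2 fold change was -1.10 ± 0.38 (SE), 0.467-fold, at an adjusted p of 0.334 in edgeR that did not pass in any alternative run, the adjusted p lying between 0.167 and 0.568. In colon it had 0.873, 0.661, 0.127 and 0.100 CPM in Δchat mice, against 0.912, 0.405, 0.283 and 0.784 CPM in WT mice, and the groups overlapped. Trbv17 at 0.72 ± 0.39 and Trbv31 at 0.64 ± 0.37 came next in ileum and did not pass (edgeR adjusted p = 0.542 and 0.566).

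In colon Trbv13-1 had the smallest p between strains. It had 22, 14, 4 and 7 counts in Δchat mice, against 25, 16, 19 and 20 in WT mice, with overlap, and a log2 fold change of -0.89 ± 0.50 (edgeR adjusted p = 0.462). With the epithelial score as a covariate its value was 0.06. Trbv2, at 0.53 ± 0.63, and Trbv19, at -0.44 ± 0.54, followed (edgeR adjusted p = 0.733 and 0.741). In the test of whether the strain difference was itself unlike between ileum and colon, 0 of 20 members were called by edgeR and 0 by DESeq2, where they called 0.0592 and 0.401% of all genes, and 0 lay below an unadjusted p of 0.05, where 7.72% of all genes did. The smallest p-values there were those of Trbv17, at 0.98 ± 0.56, Trbv31, at 1.13 ± 0.82, and Trav7-4, at 0.87 ± 0.73 (edgeR adjusted p = 0.645, 0.676 and 0.704).

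Pooling the copies into subgroups, the families of related segments, gave larger counts and less doubt over copies. The 111 Trav segments fall into 23 subgroups, 20 with a count, and the 35 Trbv segments into 31, 21 with a count. On average over libraries Trav7 held 13.3% of the alpha counts, Trav14 12.2%, Trav6 11.2%, Trav9 10.4% and Trav12 7.99%, together 55.1%. Trbv13, a subgroup of 3 segments, held 19.9% of the beta counts, Trbv12 10.9%, Trbv3 8.76%, Trbv16 7.88% and Trbv1 6.69%, together 54.1%. The subgroups differ in their number of segments, which was 12 for Trav7, 7 for Trav14, 13 for Trav6 and 1 for Trbv16, and the shares are not set per segment.

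Within the beta chain of Δchat mice, Trbv13 took a smaller share in ileum and Trbv26 a larger one. Trbv13 held 14.7, 16.6, 13.6 and 17.4% of the beta counts in ileum of Δchat mice, against 22.5, 18.1, 21.9 and 25.5% in their colon, with no overlap. In WT mice the means were 18.7 ± 2.76% in ileum and 23.3 ± 2.84% in colon, with overlap. Trbv26 held 4.42, 8.93, 5.35 and 4.91% in ileum of Δchat mice, against 4.24, 4.04, 1.32 and 0.980% in their colon, the closest pair being 4.42 and 4.24%. These shares carry no test, and the subgroups were picked for not overlapping after all subgroups with a count had been looked at. Of 21 Trbv subgroups with a count, 1 lay lower and 1 higher between tissues in Δchat mice, and 1 lower between strains in ileum. Of 20 Trav subgroups, 1 lay higher between strains in colon. In WT mice 0 subgroups of either chain lay apart between tissues.

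Trbv15 held 2.39, 6.62, 6.42 and 3.74% of the beta counts in ileum of Δchat mice, against 8.48, 11.03, 7.59 and 9.81% in ileum of WT mice, with no overlap. Trav15, some of whose segments also serve the delta chain, held 4.68, 5.70, 7.29 and 10.3% of the alpha counts in colon of Δchat mice, against 1.75, 2.48, 4.60 and 0.885% in colon of WT mice. The Trav15 groups lay apart by the narrow gap between 4.68 and 4.60%. With subgroups in place of segments in the table, 27 were tested between tissues and 1 was called in Δchat mice, Trbv17, where 13.3% of all rows were. In WT mice 2 were called, where 28.8% of all rows were: Trav15, at 2.17 ± 0.44 (edgeR adjusted p = 0.0034), and Trav3 (edgeR adjusted p = 0.0332). In Δchat mice Trav15, at 1.01 ± 0.40, and Trav3, at 0.48 ± 0.33, were not called (edgeR adjusted p = 0.111 and 0.35). Their difference of the strain effect between tissues was not called either, at -1.16 ± 0.59 and -0.51 ± 0.46 (edgeR adjusted p = 0.637 and 0.717). Trav3 averaged 1.03 ± 0.288 CPM in ileum of WT mice and 0.505 ± 0.152 CPM in their colon (SD, n = 4 each). Trav15 averaged 0.858 ± 0.191 CPM in ileum of WT mice and 0.180 ± 0.110 CPM in their colon (SD, n = 4 each). The WT colon libraries lay at 0.161, 0.180, 0.323 and 0.0560 CPM of Trav15, few counts each. Between strains 0 of 16 subgroups in colon and 0 of 25 in ileum were called by edgeR, where 0.00682 and 0.0207% of all rows were. At an unadjusted p under 0.05 there were 0 and 1, where 13.3 and 10.9% of all genes were in the fits with single segments. Trav15 fell under the filter in colon alone and was not among the 16, so its strain gap in colon was not tested. It passed the filter of the tissue fits only with the ileum libraries, where it is high, which limits its call between tissues.

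**Figure D5:**
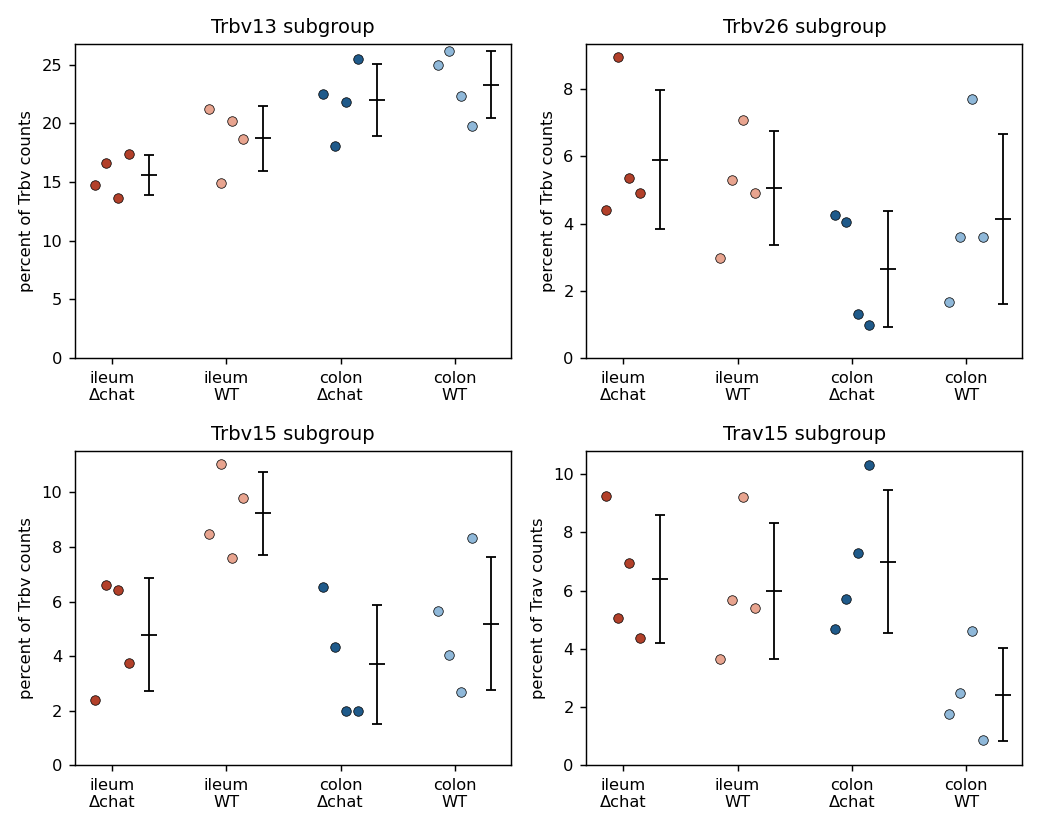
Share of the counts of its chain, in percent, of Trbv13, Trbv26, Trbv15 and Trav15 in each library, with mean and SD of 4 libraries as bars. Trbv13 is lower and Trbv26 higher in ileum than in colon of Δchat mice, Trbv15 is lower in ileum of Δchat than of WT mice, and Trav15 is higher in colon of Δchat than of WT mice, each with no overlap. The subgroups were picked for not overlapping, and the shares carry no test.

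Levels were compared between segments per kilobase of the annotated transcript. Trbv13-2 was highest at 4.20 CPM per kilobase on average, followed by Trbv16 at 2.91, Trbv3 at 2.86, Trbv12-2 at 2.54, Trbv15 at 2.43 and Trbv1 at 2.35. Trbv13-2 had 1.88, 1.35, 1.4001 and 1.58 CPM in ileum and 1.53, 1.63, 0.847 and 0.902 CPM in colon of Δchat mice, and 1.38, 1.19, 1.89 and 1.89 CPM in ileum and 2.31, 1.39, 1.05 and 0.616 CPM in colon of WT mice. These ranges overlapped in each comparison. The highest alpha segments lay lower and close together, Trav7-4 at 0.864, Trav3-3 at 0.799 and Trav6-5 at 0.769 CPM per kilobase. Their group means lay within 1 SD of each other in several groups, such as 0.519 ± 0.190 CPM for Trav7-4, 0.464 ± 0.232 CPM for Trav3-3 and 0.478 ± 0.0808 CPM for Trav6-5 in ileum of WT mice.

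The other alpha segments among the 8 with the highest levels varied between mice of 1 group. Trav14d-1 had 4, 10, 7 and 24 counts in ileum and 1, 6, 3 and 1 in colon of Δchat mice, and 2, 7, 3 and 2 in ileum and 5, 8, 4 and 0 in colon of WT mice. Trav12-2 had 8, 13, 12 and 3 counts in ileum and 8, 10, 0 and 0 in colon of Δchat mice. Trav3d-3 had 4, 1, 2 and 9 counts in ileum and 5, 7, 10 and 5 in colon of Δchat mice, and it differs from Trav3-3 at 4 of 343 coding bases. The 10 segments shared with the delta chain held 11.3 to 16.02% by group mean, and reads of alpha and delta transcripts cannot be told apart in them. The 17 other Trav segments of the annotation, 16 of them n copies, named for the n in their symbol as d copies are for the d, each have a transcript identical to that of a d copy among the members and were not analysed here. Reads of such an n copy cannot be told apart from those of its d copy, so no shares of d and n copies are given.

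Position in the beta locus was described in runs of neighbours. The runs were cut by number of segments alone. The last 11 Trbv segments, Trbv21 to Trbv31, held 15.8 ± 2.02% of the beta counts in ileum and 10.97 ± 0.992% in colon of Δchat mice, with no overlap, and 12.3 ± 2.34% in ileum and 13.0 ± 4.35% in colon of WT mice (SD, n = 4 each). This run includes Trbv26 and Trbv31, named above for not overlapping in Δchat mice, so it is not a separate result. Their mean shares were 5.90 and 4.91% in ileum and 2.65 and 2.78% in colon of Δchat mice. The middle 12, Trbv13-1 to Trbv20, held 51.0 ± 5.14% in ileum and 57.9 ± 5.39% in colon of Δchat mice, and 56.5 ± 2.96% in ileum and 58.1 ± 4.91% in colon of WT mice. The first 12 held 33.2 ± 6.26% in ileum and 31.2 ± 4.75% in colon of Δchat mice, and 31.2 ± 1.31% in ileum and 28.9 ± 3.58% in colon of WT mice.

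More alpha segments were seen in ileum, in step with the larger number of counts. In ileum 60.25 ± 2.22 Trav segments had a count in Δchat mice and 65.0 ± 5.48 in WT mice, against 44.75 ± 14.0 in colon of Δchat mice and 52.5 ± 6.46 in colon of WT mice (SD, n = 4 each). Drawn down to 68 counts in each library, the expected numbers were 38.1 ± 0.981 in ileum and 34.3 ± 5.00 in colon of Δchat mice, and 38.7 ± 1.85 in ileum and 37.1 ± 1.49 in colon of WT mice, and all groups overlapped. The effective number of Trav segments, the number of equally used segments that would give the same Shannon entropy, was 47.4 ± 1.61 in ileum and 36.1 ± 11.4 in colon of Δchat mice, and 49.8 ± 4.98 in ileum and 41.3 ± 4.44 in colon of WT mice, with no overlap in WT mice. It was computed on all counts without drawing down, so it also rises with the number of counts. Trav sums were 250 to 299 in ileum and 113 to 174 in colon of WT mice. For Trbv the numbers at 102 counts were 19.5 in ileum and 19.4 in colon of Δchat mice, and 19.4 in ileum and 19.3 in colon of WT mice. The effective number of Trbv segments was 17.2 ± 0.990 in ileum and 16.1 ± 1.36 in colon of Δchat mice, and 17.01 in ileum and 16.7 ± 0.492 in colon of WT mice.

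The alpha segments of invariant receptors had few counts, at most 12 in a library for Trav11, 9 for Trav1 and 4 for Trav11d. Trav11, which joins Traj18 in invariant natural killer T cells, had 2, 6, 0 and 0 counts in ileum of Δchat mice, 0 in all 4 colon libraries of Δchat mice, where 0 allows up to 0.138 to 0.161 ppm, 0, 0, 12 and 0 in ileum of WT mice and 2, 0, 0 and 0 in colon of WT mice. Of its 22 counts, 20 lay in ileum and 12 in 1 library. Trav11d had 19 counts in 10 libraries, 11 of them in ileum and 8 in colon. How reads were divided between Trav11 and Trav11d was not tested, so the tissue split of Trav11 alone is uncertain. In Δchat colon the pooled Trav11 subgroup had 1 count in replicate 1 (0.0437 CPM) and 1 in replicate 4 (0.0501 CPM), and 0 in replicates 2 and 3. These single counts were 0.465 and 1.47% of the alpha counts of their libraries, whose Trav totals differ. Trav1, which joins Traj33 in mucosal-associated invariant T cells, had 23 counts in ileum and 3 in colon over all libraries, in 7 libraries. Traj18 and Traj33 were at 0 in every library, and Zbtb16, the transcription factor of both lineages, was detected at 4.40 to 11.8 CPM. The beta segments that these receptors prefer, among them Trbv1, Trbv13-2, Trbv13-3, Trbv19 and Trbv29, were counted in all 16 libraries, as conventional T cells use them too.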

How the data were processed

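RNA of 16 libraries was analysed from the deposited table of estimated counts per Ensembl gene. Per the submitters' processing notes the authors used cutadapt 5.0 and Salmon 1.4.0 with GRCm39, and the annotation release is not given in the sources used here. Per library 34.8 to 40.7% of the deposited estimated counts were not whole, and they were rounded. Salmon divides reads among similar transcripts, which makes single Trav copies uncertain, and strand was not stated. Groups were taken from the sample titles. The replicates are separate mice, and chi-square per degree of freedom between replicates was 25.4 to 93.4, so no library was a copy of another.

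Symbols, locus order and sequences came from GENCODE M21 by gene identifier, without coordinates, since that annotation uses GRCm38. Counts were tested in R 4.3.3 with edgeR 4.0.16 (filterByExpr, TMM, robust 2-sided quasi-likelihood test), with Benjamini-Hochberg adjusted p-values over the whole table of tested genes and calls at an adjusted p under 0.05. Strains were compared in fits of 8 libraries. Tissues, and the difference of the strain effect between them, came from 1 fit over 16. The fits were tested on simulated data. CPM are scaled over 16 libraries. Shares, ratios and diversity were computed in Python 3.11.15 from the counts and carry no test, and exact binomial intervals give the counting error of the sums.

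Members and lists were chosen with earlier results of these data known. Named were the 8 Trav and 8 Trbv segments with the highest mean CPM, the called members or else the 3 with the smallest p in each comparison, the segments of invariant receptors, the constant regions, the CD3 chains, Cd4, Cd8a and Cd8b1, and the 5 subgroups of each chain with the highest mean share. Ileum and colon of a strain with the same number are from the same mouse, per the library names. Their deviations from the group means correlated by -0.18 to 0.27 over 15198 genes, and the mouse was a block in an alternative. Numbers do not pair mice across strains (-0.27 to 0.33). Other alternatives were RLE size factors, no filter, a filter of 1 CPM in 4 libraries, DESeq2 1.42.0, removal of immunoglobulin genes, epithelial and T cell scores (mean log2 CPM with a prior count of 2) as covariates, subgroups in place of segments, 1 fit for the strain comparisons, and each library left out in turn. For the list of 34 genes and the genes named beside the members the alternatives were added after the data had been seen.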

Additional observations from a re-analysis of the deposited data

Results flagged for a closer look

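Of 144 groups of 4 libraries looked at, 5 held a library far from the other 3, and chance gives about 1 in 20. The cause of none of them was tested. Among ileum libraries of Δchat mice, replicate 4 had 36.6 Trav segments when drawn down to 68 counts, where the others had 38.5 to 38.7. In ileum of WT mice, the top Trav segment of replicate 1, Trav9-2, held 6.91% of the alpha counts. The top segments of the others, each a different one, held 4.68 to 5.05%. Trbv segments had 25.5 counts per 100 beta constant region counts in replicate 1 of WT colon, where the others had 16.9 to 18.0. Plain copies, whose symbols carry neither d nor n, held 59.95% of the Trav counts in replicate 2 of Δchat colon, where they held 52.9 to 53.2% in the others. Trav7-4 had 0.0423 CPM, a single count, in replicate 3 of Δchat colon, where the others had 0.200 to 0.220 CPM. That library also held the highest summed level of epithelial markers, and without it the ileum to colon value of Trav7-4 in Δchat mice was 1.46 on the log2 scale (edgeR adjusted p = 0.0833).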

How the results depend on the processing

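The counts of called members between strains, and for the difference of the strain effect, were 0 in every alternative run. For ileum against colon in Δchat mice, 2 members were called, against 1 with no filter on low counts, 0 with the stricter filter that left 8 members, 5 with DESeq2, 1 with the epithelial score, 0 with the T cell score, 1 with subgroups, 1 (Trbv3) with the replicate block, and 0 to 3 with a library left out. In WT mice 0 were called, against 1 with the stricter filter, 3 with DESeq2, 3 with the epithelial score, 2 with subgroups and 0 to 0 with a library left out. With the mouse as a replicate block Trbv17 (1.51) and Trav7-4 (1.77) lost their calls in Δchat mice, Trbv3 gained one, and so did Trac (adjusted p = 0.0174 in edgeR). The block changed no other call of a gene named in the report.

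On the log2 scale the summed ileum to colon ratio of Trav was 0.87 in Δchat mice and 0.85 in WT mice, against 0.13 and -0.10 per constant region count, and that of Trbv in WT mice was 0.52 against -0.17. The log2 ratio of effective numbers moved for Trav between tissues, where it was 0.39 in Δchat mice and 0.27 in WT mice, to 0.86 and 0.94 with segments of at least 5 counts, and to 0.07 in WT mice with subgroups. These numbers were not drawn down to equal counts. At the cut of 5 counts, replicate 4 of Δchat colon kept 11 Trav counts in 2 segments. For Trbv it moved with segments of at least 5 counts to -0.16 between strains in colon, and to 0.32 in Δchat mice and 0.14 in WT mice between tissues, and with subgroups to 0.08 between strains in ileum, and to 0.21 in Δchat mice and 0.10 in WT mice between tissues. Signs turned for Trbv13-1 between strains in colon with the epithelial score (0.06), for Trbv15 (-0.14) and Trbv16 (-0.18) between tissues in WT mice with the T cell score, and for Cd8b1 between tissues in WT mice without colon replicate 4 (-0.02, against 0.15, with 0.48 at the other end of the libraries left out). Of the list of 34 genes 1 was called between strains in ileum by DESeq2, which called 2.59% of all genes. Between tissues in Δchat mice 10 to 23 of the list were called with a library left out, against 19. The causes of these shifts were not tested, and the T cell score itself differed between the tissues. Few counts per segment limit all single-segment values.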
